A study of Mus musculus with 6 samples.

Results

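Kinesins, dyneins and tubulins are the motors and the track of microtubule transport. They were taken here as every probe set to which the platform annotation gives exactly 1 symbol, where that symbol starts with Kif plus a digit, Klc plus a digit, Dync, Dynl, Dctn, Tuba, Tubb or Tubg. This choice by symbol gave 155 probe sets of 73 genes, out of 36701 probe sets without controls. The rule uses no measured value, but it was set with earlier results of these data known. The measured tissue was the deep cerebellar nuclei around the anterior interpositus nucleus of male C57BL/6 mice, 11 to 18 weeks old per the labels. All mice carried wires implanted in the left eyelid and a headstage, recovered for 3 days and then had 7 training days, on which a 352 ms tone and a 100 ms periorbital shock were delivered. In the paired group (P7) the shock began 252 ms after tone onset and both ended together, and in the unpaired group (U7) tone and shock were explicitly unpaired, in a pseudorandom order. For each pool 10 to 15 nuclei, ipsilateral to the implanted eye, were taken with syringe needles within 10 to 30 min of sacrifice. There were 6 arrays, 1 for each training group on each of the array designs A, B and C. No difference between the groups therefore has a replicate check, no p-value is given, and the number of arrays limits the precision. In pooled tissue, fewer cells of a type and less RNA per cell cannot be told apart.

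Kinesins use ATP to walk along microtubules, most of them toward the plus end, and in axons they carry vesicles, mitochondria and cytoskeletal cargo away from the cell body. Cytoplasmic dynein, working with the dynactin complex, carries cargo back toward the minus end. Microtubules are built from dimers of alpha and beta tubulin, and gamma tubulin in ring complexes starts new ones. Projection neurons of the deep nuclei send long axons out of the cerebellum and depend on this transport, while a separate set of kinesins works on the spindle of dividing cells.

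The values are log2 signals, and a probe set's rank is the percentile of its mean log2 signal among all probe sets of its design. Signal also depends on the probes themselves, so ranks of different probe sets do not order the amounts of RNA. Probe sets whose mean signal reached the median of their design were kept for the comparison of groups, 92 of the 155, which covered 52 of the 73 genes. Among the 63 that were not kept, 31 lay at the signal floor in both pools, where a difference cannot be seen, and 4 lay at it in 1 pool. The 21 genes with no kept probe set were 10 of the 11 mitotic kinesins, Kif6, Kif9, Kif13a, Kif16b, Kif24, Dynlt1b, Tubb1, Tubb2a-ps2, Tubgcp2, Tubgcp3 and Tubgcp4. Just inside the filter were probe sets of Tubgcp6 and Tubgcp5 on design B and Kif5b on design C, at ranks of 51.4 to 51.8, and just outside were Kif1b on design A and Kif11 and Kif14 on design C, at 49.2 to 49.9. Of the kept member probe sets, 35 carry a letter suffix, which on this type of array marks probes that also match related transcripts or that did not meet all design rules.

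Markers fixed as lists served to place the tissue. The projection neuron genes Slc17a6, Vamp1 and Nefl had ranks of 99.95, 99.96 and 99.92 on their brightest probe sets, and 9 of the 10 listed projection neuron genes on the arrays were kept. Of these 9, 6 were lower in the paired pool and 3 higher, with a median log2 ratio (paired minus unpaired) of -0.07. The 3 higher were Slc17a6 with a mean of 0.25, Vamp1 with 0.24 and Nefm with 0.05. On the brightest probe sets Slc17a6 had -0.00 and Vamp1 -0.02. The summed linear signals of the 9 genes were 3076 in the paired against 3232 in the unpaired pool on design A. On design B they were 4133 against 4286 and on design C 2445 against 2558. Among Purkinje cell genes, Pcp2 had a rank of 97.6, while the median rank over the probe sets of that list was 53.9. Over all 10579 genes with a kept probe set, 5187 were higher in the paired pool and 5392 lower. Among markers of granule cells, 7 of 9 kept genes were higher, with a median log2 ratio of 0.35. Of the 9, 5 were at least 0.32 higher (all genes, 3.01%), Gabra6 most at 0.89. At least 0.32 lower was 1 (3.81%), Kcnd2 at -0.52. The summed linear signals of the 9 were 978 in the paired against 846 in the unpaired pool on design A, 23.8 against 22.9 on design B and 232 against 180 on design C. Purkinje cell markers were higher in 7 of 10 genes (median 0.08), with Kitl at -0.59 and Gad1 at -0.41, and their summed linear signals were 1238 in the paired against 1250 in the unpaired pool on design A, 21.9 against 24.0 on design B and 83.2 against 58.3 on design C. Oligodendrocyte markers were lower in 11 of 13 (median -0.11). Their summed linear signals were 8900 in the paired against 9389 in the unpaired pool on design A, 2401 against 2515 on design B and 256 against 314 on design C. Astrocyte and Bergmann glia markers were lower in 8 of 13 (median -0.08) and blood cell markers in 3 of 4 (median -0.09). Microglia markers were higher in 4 of 7 (median 0.04) and endothelial and mural cell markers in 3 of 6 (median 0.01). Whether these differences play a part in those of the motor and tubulin genes was not tested.

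Signal ranks differed between the members by role. Over the 3 designs together, alpha tubulin probe sets had a median rank of 85.5, dynein light chains 85.2, dynactin 83.8 and kinesin light chains 86.3. Cytoplasmic dynein chains had a median rank of 80.5 and beta tubulins 60.5, a value that was 92.8 with the brightest probe set of each gene and 35.4 without suffixed probe sets, so the place of beta tubulins among the subfamilies is not settled. The kinesins as a whole had a median rank of 49.2 over 69 probe sets, which joined classes of unlike rank. The 15 kinesins of the families that carry cargo or act on axonal microtubules had a median of 68.3 over 41 probe sets. Of these 28 were kept, and on design A the median was 49.9 with 6 of 13 kept. The 11 mitotic kinesins had a median of 17.7 over 20 probe sets. The remaining 6 kinesins had 25.6 over 8 probe sets, of which 3 were kept. Gamma tubulins and their complex proteins had a median of 47.8. These medians differed between designs. On designs A, B and C they were 95.7, 71.9 and 77.3 for alpha tubulins and 95.2, 28.7 and 20.5 for beta tubulins. For dynactin they were 89.3, 69.4 and 56.6, and for kinesins 35.9, 57.3 and 62.4. The pooled medians therefore also depend on which designs hold the probe sets of a subfamily. In all, 37 member probe sets ranked at 90 or above, 11 of them kinesins.

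**Figure D1:**
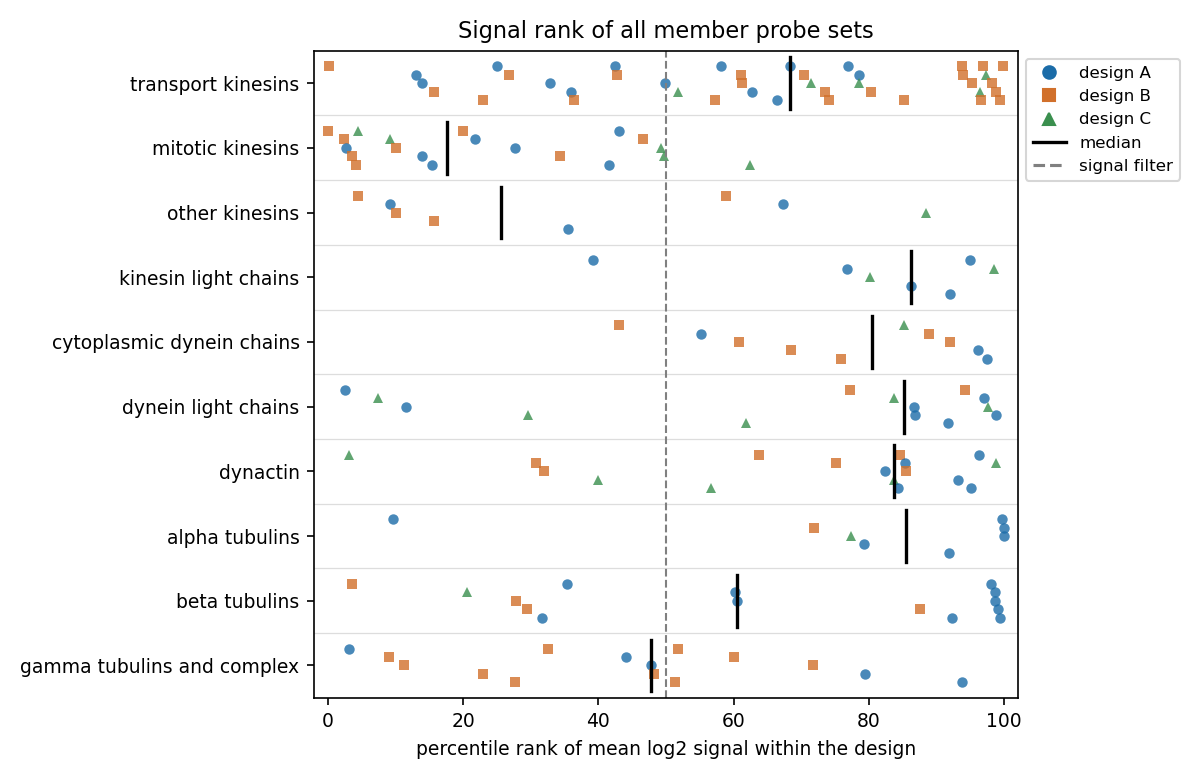
Percentile rank of the mean log2 signal within the design (horizontal axis) of all 155 member probe sets, by subfamily. Each point is 1 probe set, its colour and shape give the array design, black bars are medians and the dashed line is the signal filter. Of the 20 mitotic kinesin probe sets 19 lie left of the filter, whereas alpha and beta tubulin probe sets of design A reach ranks above 99.

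Ranks differed widely between probe sets of the same gene. Of the 40 member genes with several probe sets, 18 had probe sets on both sides of the filter and 12 had ranks more than 50 apart. Kif5b, a heavy chain of conventional kinesin, had 1 probe set at rank 98.8 and another at 0.14 on the same design B. For Tubb5 the highest rank was 99.1, on design A, and the lowest 3.60, on design B, and for Dctn3, a dynactin subunit, they ran between 3.07 and 98.9 on design C alone.

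The mitotic kinesins were dim on nearly every probe set. They include the spindle motor Kif11, the central spindle motors Kif20a and Kif23, Kif4, Kif14, Kif15, Kif18a, Kif18b, Kif20b, Kif22 and the microtubule depolymerase Kif2c. Of their 20 probe sets 1 was kept, a suffixed probe set of Kif22 on design C at rank 62.4, with log2 signals of 3.67 in the paired and 3.73 in the unpaired pool. The highest ranks of the other genes were 49.8 for Kif11, 49.2 for Kif14 and 46.6 for Kif18b. Of the 9 listed markers of dividing cells on the arrays 4 were kept, and the median rank over their probe sets was 23.1.

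The promoters of these dim genes had a sequence feature in common. Promoters came from RefSeq on GRCm38.p6, with 250 bases before and 50 after the annotated start, and 57 of the 73 member genes had an entry. The hexamer TTTGAA, or TTCAAA when read from the other strand, is the core of the cell cycle homology element known from cell cycle promoters. It occurred in 9 of 10 mitotic kinesin genes with an entry, 1 of 11 cargo kinesin genes (Kif1a) and 1 of 11 alpha and beta tubulin genes (Tubb4b), against 20.2% of all 27025 genes. For Kif2c and Kif14 the listed start lies well inside the RefSeq gene, so 2 of the 9 windows are not at the gene's 5′ end. Cargo kinesins have the same limit. The Kif1a match lies in the window of its downstream start, and the window of its upstream start holds no match. For Kif3a, which has no match, the listed start lies 1668 bases inside the gene. From 80 bases before to 30 after the start the hexamer was present in 7 of the 10 mitotic kinesin genes, neither Kif2c nor Kif14 among them. In that window it was in 1 of 11 cargo kinesin genes (Kif1a), 0 of 11 alpha and beta tubulin genes and 6.56% of all genes. CCAAT, searched on both strands like the others, was in 6 of 10 mitotic kinesin genes, 3 of 11 cargo kinesin genes, 7 of 11 tubulin genes and 41.1% of all genes. GGGCGG was in 6 of 10, 9 of 11, 7 of 11 and 38.2%. Of the 8 motifs searched the rest were rarer: TGACGT was in 2 of the 10 mitotic kinesin genes and 8.37% of all genes, TGACGTCA, which contains it, in 1 and 2.03%, and TTTGGCGC in 2 and 0.585%. TTTCCCGC (1.24% of all genes) and CCATGGT (4.01%) were in 0 of the 10. A match describes these letters in this window and shows neither binding nor a cause of low signal. The 7 mitotic kinesin windows with the hexamer are shown first, then those of the bright genes Tuba1a and Tubb3. Each runs 5′ to 3′ on the gene's strand, with capitals for TTTGAA or TTCAAA.
Kif4, chrX:100625985-100626094, + strand: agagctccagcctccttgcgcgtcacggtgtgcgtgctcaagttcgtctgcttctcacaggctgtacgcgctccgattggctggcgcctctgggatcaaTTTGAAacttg
Kif11, chr19:37376302-37376411, + strand: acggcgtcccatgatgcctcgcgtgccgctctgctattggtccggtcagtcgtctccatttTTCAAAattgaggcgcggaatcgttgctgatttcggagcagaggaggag
Kif15, chr9:122951001-122951110, + strand: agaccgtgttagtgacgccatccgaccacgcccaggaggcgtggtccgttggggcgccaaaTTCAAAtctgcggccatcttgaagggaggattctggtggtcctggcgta
Kif18b, chr11:102925095-102925204, - strand: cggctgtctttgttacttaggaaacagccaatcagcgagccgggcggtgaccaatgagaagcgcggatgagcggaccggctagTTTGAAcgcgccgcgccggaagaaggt
Kif20b, chr19:34922278-34922387, + strand: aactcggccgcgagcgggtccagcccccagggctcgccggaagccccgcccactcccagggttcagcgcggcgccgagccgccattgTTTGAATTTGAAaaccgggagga
Kif22, chr7:127042391-127042500, - strand: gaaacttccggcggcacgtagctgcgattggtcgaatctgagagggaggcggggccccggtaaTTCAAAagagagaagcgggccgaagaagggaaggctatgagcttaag
Kif23, chr9:61946770-61946879, - strand: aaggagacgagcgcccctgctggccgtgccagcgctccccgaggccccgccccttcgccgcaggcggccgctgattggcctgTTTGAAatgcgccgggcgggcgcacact
Tuba1a, chr15:98953472-98953581, - strand: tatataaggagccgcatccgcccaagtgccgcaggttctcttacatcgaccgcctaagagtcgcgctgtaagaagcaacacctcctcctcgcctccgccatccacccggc
Tubb3, chr8:123411473-123411582, + strand: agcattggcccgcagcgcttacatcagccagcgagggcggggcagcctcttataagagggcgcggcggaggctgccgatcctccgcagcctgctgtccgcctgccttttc

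In Kif11, Kif15 and Kif22 a match began 17 to 19 bases before the start, and in Kif18b, Kif23 and Kif20b, with adjoining matches, 2 to 13 bases after it. Kif4 had it 19 bases after the start. The members described next are those of transport and of the microtubule itself, some of whose probe sets were also under the filter.

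The comparison of paired with unpaired training asked whether training with the tone and shock in register went with other levels of motor and tubulin transcripts. As a group the members were split evenly: 47 of the 92 kept member probe sets were higher in the paired pool and 45 lower, with a median log2 ratio of 0.01, against a median of 0 over all 18351 kept probe sets, which the scaling sets. At gene level the split was 26 higher and 26 lower. None of the 92 was at least 1.5-fold higher (all kept probe sets, 0.349%) and 2 were at least 1.5-fold lower (0.332%), both of them motor genes, Dync1i2 and Kif5b. At a lower threshold of 0.32 on the log2 scale, 10 of the 92 were higher (10.9%, against 4.68% of all kept probe sets) and 6 lower (6.52%, against 5.07%). The log2 ratios of the kept members had an SD of 0.24, against 0.19 over all kept probe sets, and 0.20 is the pooled SD of a member probe set about the mean of its own gene. The threshold of 0.32 is therefore less than 2 of these SDs from 0.

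**Figure D2:**
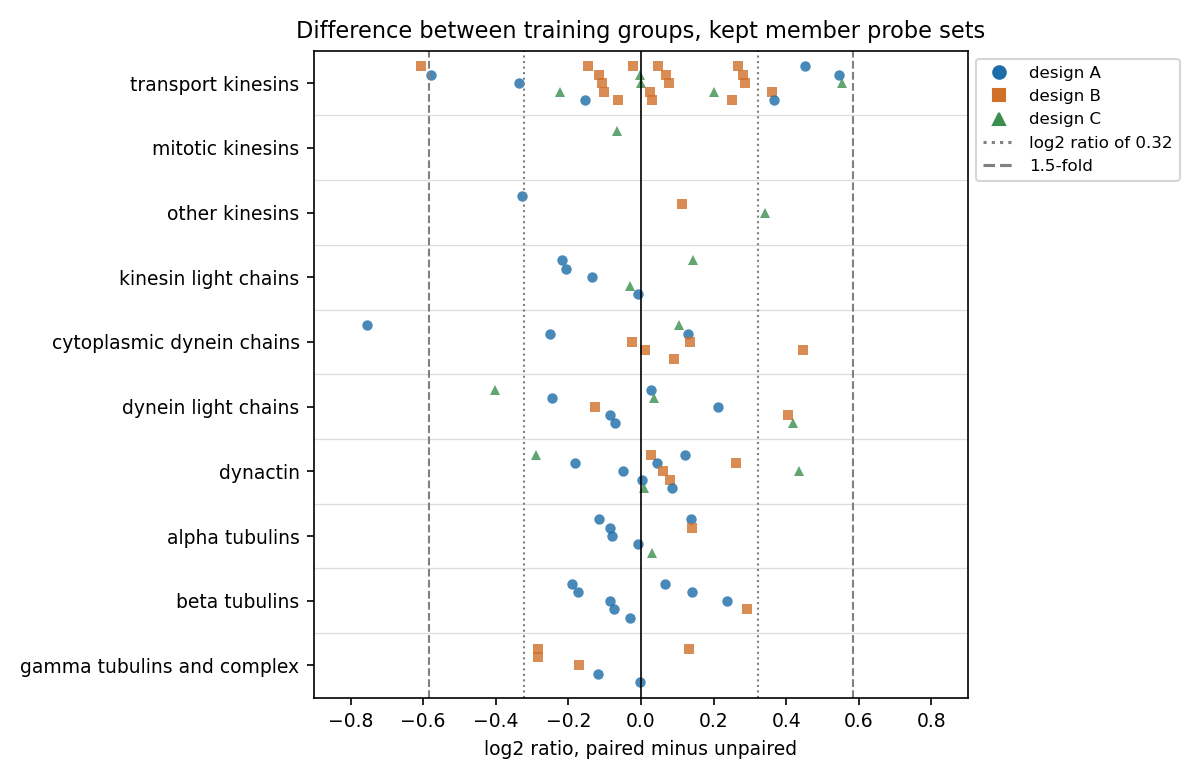
Log2 ratio, paired minus unpaired (horizontal axis), of the 92 kept member probe sets by subfamily. Each point is 1 probe set, dotted lines mark a log2 ratio of 0.32 on either side and dashed lines 1.5-fold. Tubulin points all lie inside the dotted lines, between -0.28 and 0.29, and the points outside 1.5-fold are Dync1i2 and Kif5b on the lower side.

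The direction varied with the array design. On design A 14 kept members were higher and 26 lower, with a median log2 ratio of -0.07, on design B 23 were higher and 12 lower (median 0.06), and on design C 10 were higher and 7 lower (median 0.03). Over all kept probe sets of each design 50% lay above 0. Past 0.32 on the log2 scale, design A had 3 members higher (all kept probe sets, 4.19%) and 4 lower (5.09%), design B 3 higher (5.82%) and 1 lower (5.09%), and design C 4 higher (3.99%) and 1 lower (5.04%). The designs carry different probe sets, and whether the arrays of a group held the same RNA is not stated in the labels.

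**Figure D3:**
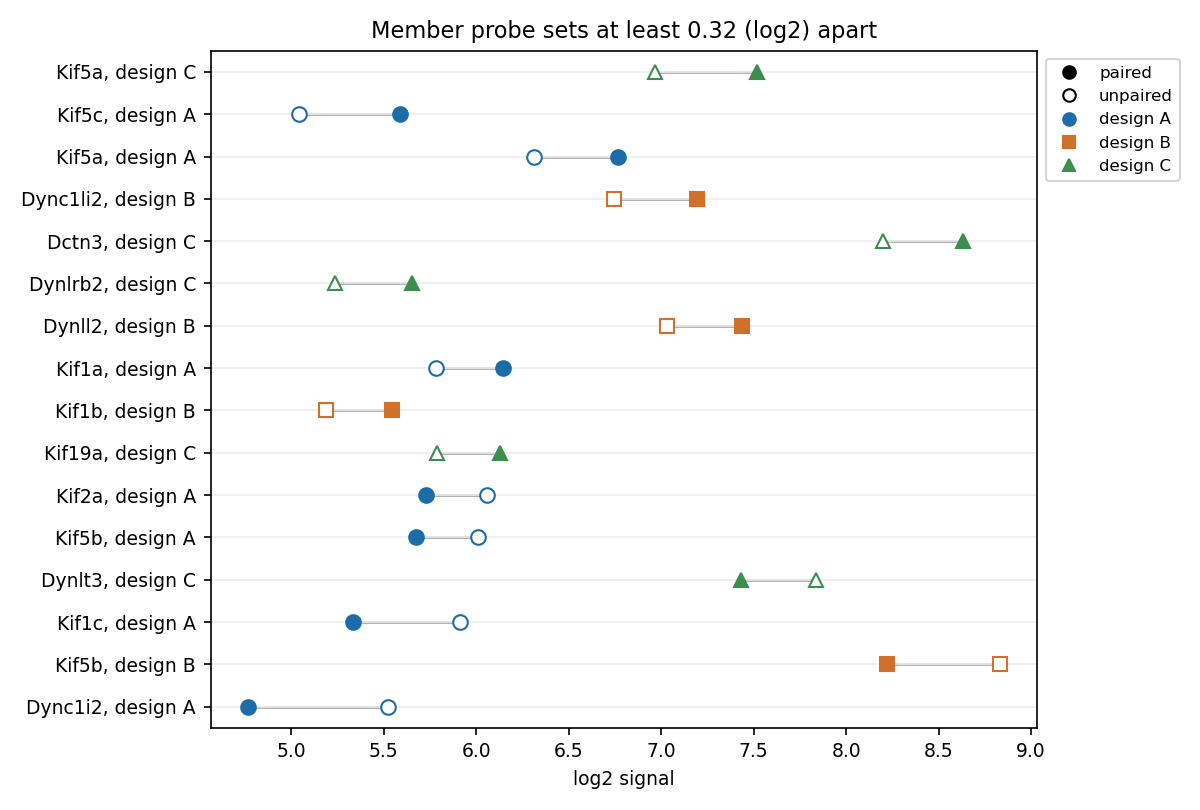
Log2 signal in the paired pool (filled) and the unpaired pool (open) of the 16 kept member probe sets at least 0.32 apart on the log2 scale, with the array design beside each gene name and in colour and shape. The 10 upper rows were higher and the 6 lower rows lower in the paired pool. Kif5a appears among the higher and Kif5b among the lower rows, each on more than 1 design.

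Conventional kinesin carries vesicles and other cargo along axons as a heavy chain, which is the motor, bound to light chains. Its heavy chains come from the neuronal genes Kif5a and Kif5c and the widely expressed Kif5b. Kif5b was lower in the paired pool on all 3 kept probe sets, which lay on different designs. On design A it had a log2 signal of 5.68 in the paired and 6.01 in the unpaired pool, on design B 8.22 and 8.83, and on design C 3.00 and 3.22. The log2 ratios were -0.34, -0.61 and -0.22, a mean of -0.39 ± 0.20 (SD over 3 probe sets, which is not a spread between replicate samples). The probe sets of designs B and C carry a suffix, and without suffixed probe sets Kif5b rested on the -0.34 of design A.

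Kif5a had 4 kept probe sets on 3 designs. On design A the log2 signals were 6.77 in the paired and 6.31 in the unpaired pool, and on design B, at rank 99.8, 9.91 and 9.87. On design C one probe set had 7.52 and 6.97 and the other 4.33 in both pools. The log2 ratios of 0.45, 0.05, 0.55 and -0.00 gave a mean of 0.26 ± 0.28 (SD over 4 probe sets), and the probe set of highest rank showed almost no difference. The kept probe set of design A carries a suffix, and without suffixed probe sets the mean was 0.20. A further probe set, under the filter on design A, had 3.89 in the paired and 3.60 in the unpaired pool.

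Kif5c was higher on both of its kept probe sets, with 5.59 in the paired and 5.04 in the unpaired pool on design A and 7.24 and 7.17 on design B, log2 ratios of 0.55 and 0.07. Between the heavy chain genes, then, no kept probe set of Kif5b was above 0 and none of Kif5a or Kif5c was below 0 by more than 0.01. This split was noticed in these data and had no replicate to test it. Klc1, the main neuronal light chain gene, had 5 kept probe sets, of which 4 were lower. In the paired against the unpaired pool the log2 signals on design A were 8.42 against 8.63, 7.15 against 7.37 and 7.94 against 7.95, and on design C 8.10 against 8.13 and 5.15 against 5.01. Its mean log2 ratio was -0.07 ± 0.15 (SD over 5 probe sets). Of the 5, 4 carry a suffix, and the remaining probe set had -0.21. For Klc4 the kept probe set had 6.47 in the paired and 6.61 in the unpaired pool, a log2 ratio of -0.13, and the one under the filter had 0.12.

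Kif1a and Kif1b, motors of synaptic vesicle precursors and mitochondria, had higher means in the paired pool that their brightest probe sets did not share. For Kif1a the log2 signals were 6.15 in the paired and 5.78 in the unpaired pool on design A, a log2 ratio of 0.37, and 7.21 and 7.18 on design B. All 4 kept probe sets of Kif1b lay on design B, and in the paired against the unpaired pool had 5.69 against 5.41, 5.55 against 5.19, 7.79 against 7.52 and, at rank 99.5, 9.10 against 9.21. The log2 ratios of 0.29, 0.36, 0.27 and -0.11 gave a mean of 0.20 ± 0.21 (SD over 4 probe sets), which was 0.08 with the filter at the 75th percentile. Kif1c, a related motor, had a single probe set with 5.33 in the paired and 5.91 in the unpaired pool, which is 1.49-fold lower and just short of 1.5-fold. Kif13b, at rank 98.2, had 8.14 in the paired and 8.26 in the unpaired pool. Kif13a and Kif16b were under the filter on all probe sets.

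The kinesins of the heterotrimeric motor are Kif3a with Kif3b or Kif3c. Kif3a had 3 kept probe sets on design B, in the paired against the unpaired pool with 4.63 against 4.77, 6.35 against 6.32 and 7.73 against 7.75, and a mean log2 ratio of -0.05 ± 0.09 (SD over 3 probe sets). Under the filter on design A another probe set had 4.57 in the paired and 4.10 in the unpaired pool, a log2 ratio of 0.47, and with no filter the Kif3a mean was 0.07. Kif3b had 4.91 in the paired and 4.84 in the unpaired pool. For Kif3c the probe sets pointed in opposite directions, -0.15 on design A and 0.25 on design B. Kif17, which in mouse brain carries NMDA receptor cargo in dendrites, had 4.92 in the paired and 4.93 in the unpaired pool.

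Among the other kinesins, Kif2a, a microtubule depolymerase of growing axons, was 1.26-fold lower on its single probe set, with 5.73 in the paired and 6.06 in the unpaired pool. Kif21a had a log2 ratio of -0.10 on design B, and 0.20 on design C at rank 97.3. For Kif21b the ratios were 0.28 and, at rank 95.2, -0.06. Kif26a had 0.11. Kif6, Kif9 and Kif24 were under the filter throughout.

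**Figure D4:**
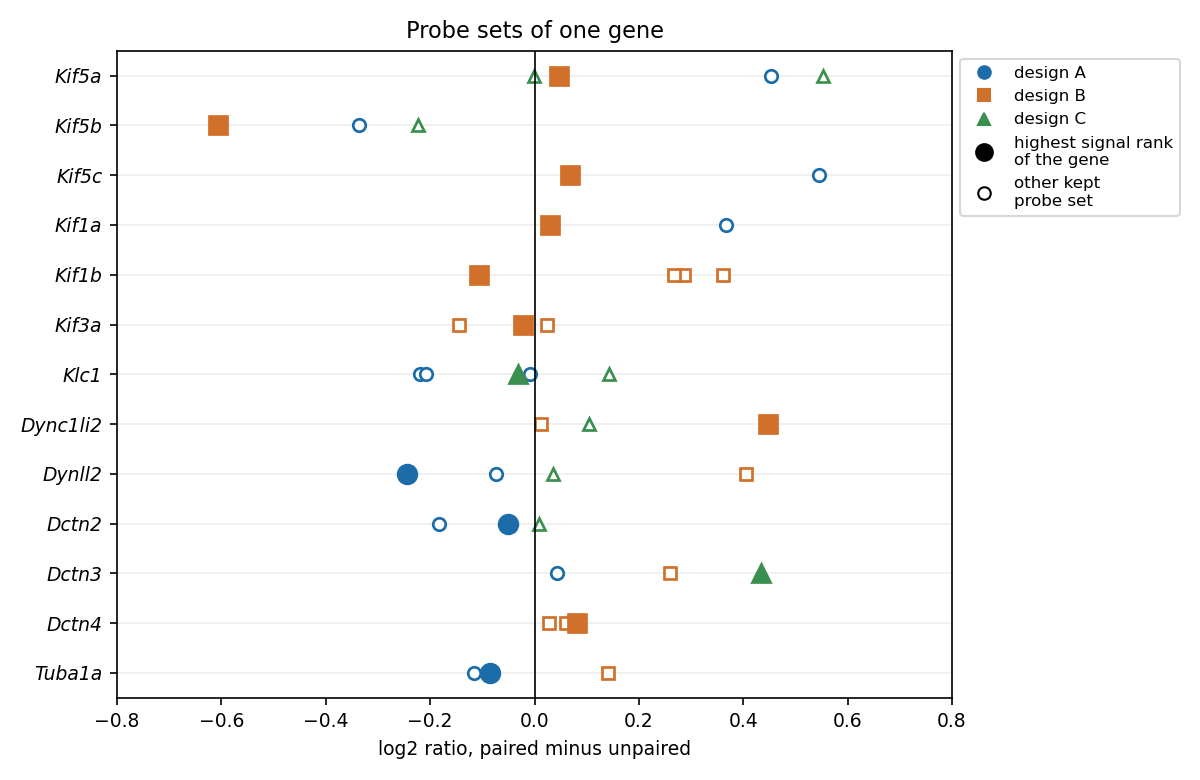
Log2 ratio, paired minus unpaired (horizontal axis), of each kept probe set of the 11 member genes with 3 or more kept probe sets and of Kif5c and Kif1a. Colour and shape give the array design, and the large filled point is the gene's probe set of highest signal rank. All Kif5b points lie below 0, and the filled points of Kif5a, Kif5c, Kif1a and Kif1b lie near 0, between -0.11 and 0.07, while their open points reach 0.36 to 0.55.

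Probe sets of one gene agreed on direction about as often among the members as elsewhere. All kept probe sets lay on one side of 0 in 10 of the 24 member genes that had at least 2 (41.7%), against 42.1% of 3437 genes in all. With 3 or more, 4 of 11 did (36.4%, against 22.2% of 1034 genes): Dctn3, Dctn4 and Dync1li2 above 0 and Kif5b below. In 15 of the 24 genes the brightest kept probe set had a smaller absolute log2 ratio than the mean of the others, with medians of 0.08 and 0.16. Among all kept probe sets the SD of the log2 ratio also fell with rank, at 0.21 for ranks of 50 to 75 and 0.17 for ranks of 90 and above, and among the members these SDs were 0.30 over 28 and 0.23 over 37 probe sets.

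Cytoplasmic dynein, the minus-end motor, is assembled from a heavy chain, intermediate chains, light intermediate chains and light chains. The heavy chain gene Dync1h1 had a single probe set, at rank 96.2, with 8.70 in the paired and 8.95 in the unpaired pool, a log2 ratio of -0.25. The intermediate chain genes differed in direction. Dync1i1, the neuronal form, had 9.32 in the paired and 9.19 in the unpaired pool, whereas Dync1i2, the widely expressed form, had 4.77 and 5.52. The only Dync1i1 probe set carries a suffix. The Dync1i2 difference, 1.69-fold lower or -0.75 on the log2 scale, was the lowest log2 ratio among the kept members, and came from 1 probe set at rank 55.2 with no second probe set to set beside it.

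The light intermediate chains of the main cytoplasmic dynein, which link the motor to cargo adaptors, were higher on all 4 kept probe sets of Dync1li1 and Dync1li2. Dync1li1 had 6.71 in the paired and 6.57 in the unpaired pool. For Dync1li2 the log2 signals in the paired against the unpaired pool were 7.19 against 6.74 and 5.71 against 5.70 on design B and 5.64 against 5.53 on design C. Its log2 ratios of 0.45, 0.01 and 0.10 gave a mean of 0.19 ± 0.23 (SD over 3 probe sets), so that 1 probe set carried most of the difference. The chains of the ciliary dynein that serves intraflagellar transport had log2 ratios of 0.09 for Dync2h1 and -0.03 for its light intermediate chain gene Dync2li1.

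Dynein light chains split in both directions. Dynll1, a light chain that also binds many proteins outside the motor, was lower on both probe sets, with 9.99 in the paired and 10.07 in the unpaired pool on design A and 5.72 and 5.85 on design B. Dynll2 had 4 kept probe sets, in the paired against the unpaired pool with 8.99 against 9.24 and 7.27 against 7.34 on design A, 7.44 against 7.03 on design B and 3.69 against 3.65 on design C. Its mean of 0.03 ± 0.27 (SD over 4 probe sets) covers log2 ratios of -0.24 to 0.40. Dynlrb1 had 0.03 and 0.21 on design A. Dynlt3 was 1.32-fold lower on a suffixed probe set at rank 97.6 on design C, with 7.43 in the paired and 7.84 in the unpaired pool, and its other 3 probe sets were under the filter, with log2 ratios of 0.00, 0.00 and -0.21.

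Dynlrb2 and Kif19a, a light chain and a kinesin found mainly in cells with motile cilia, were both higher on design C. For Dynlrb2 the log2 signals were 5.65 in the paired and 5.23 in the unpaired pool, and for Kif19a 6.13 and 5.79, which is 1.34-fold and 1.27-fold. Dynlrb2 itself is on the list of ependyma and choroid plexus markers and was left out of it here. Of the other markers, 6 of 7 kept genes were above 0 (all genes, 5187 of 10579), with a median log2 ratio of 0.16. None of the 6 passed 0.32, and the 1 below 0 did, the choroid plexus gene Ttr at -0.45. Their summed linear signals were 447 in the paired against 422 in the unpaired pool on design A, 33.0 against 28.5 on design B and 195 against 174 on design C, with Rsph1 at 0.24 and Tmem212 at 0.19. Foxj1, which switches on the genes of motile cilia, was at rank 82.8 with 7.01 in the paired and 6.93 in the unpaired pool. The part of these cells in the values of Dynlrb2 and Kif19a was not tested.

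Dynactin is the complex that activates dynein and tethers it to cargo. Of its 13 kept probe sets 10 were above 0, against 50% of all kept probe sets. The median log2 ratio of the 13 was 0.04. Dctn3 and Dctn4 supplied 3 each of the 10. By gene, the means of Dctn1, Dctn3, Dctn4 and Dctn6 were above 0, and those of Dctn2 (-0.07) and Dctn5 (-0.14) below. Of the 13 probe sets 1 passed 0.32. That 1 belonged to Dctn3, whose suffixed probe set on design C had 8.63 in the paired and 8.20 in the unpaired pool, a log2 ratio of 0.43. The other kept Dctn3 probe sets had 8.57 and 8.52 on design A and 5.13 and 4.87 on design B. The gene's mean was 0.25 ± 0.20 (SD over 3 probe sets). Without suffixed probe sets 0.04 remained. Dctn4 was higher on 3 of 3 kept probe sets, by 0.03 to 0.08 (mean 0.06, and 0.16 with no filter), with log2 signals in the paired against the unpaired pool of 6.33 against 6.27, 6.40 against 6.32 and 5.67 against 5.64.

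The largest dynactin subunit gene, Dctn1, which makes the arm that binds microtubules and dynein, had 8.88 in the paired and 8.79 in the unpaired pool. Dctn2 in the paired against the unpaired pool had 7.16 against 7.21 and 6.83 against 7.01 on design A and 5.46 against 5.45 on design C, with a mean of -0.07 ± 0.10 (SD over 3 probe sets). Dctn5 had log2 ratios of 0.00 on design A and -0.29 on design C, and Dctn6 had 0.12.

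Alpha and beta tubulins held some of the brightest member probe sets, and those that were kept differed little between the pools. Of their 23 probe sets 10 ranked at 90 or above, all on design A. The 16 kept alpha and beta tubulin probe sets ranged between -0.19 and 0.29 in log2 ratio, with an SD of 0.14, and none reached 0.32. By comparison the SD was 0.29 over the 32 kept kinesin probe sets. It was 0.14 over the 6 of kinesin light chains and 0.16 over the 6 of gamma tubulins and their complex. None of these reached 0.32 either, so small differences were not particular to alpha and beta tubulins. Of the 16 tubulin probe sets 11 carry a suffix, and alpha tubulin genes are nearly identical in sequence, as many beta tubulin genes are, so a probe set may read several of them. Probe sets that name several tubulin or dynein light chain genes were left out, 10 in all for the member families.

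Tuba1a, the main alpha tubulin of developing and adult neurons, had 12.18 in the paired and 12.26 in the unpaired pool at rank 99.96 on design A. Its other probe sets had 11.12 and 11.23 on design A and 5.53 and 5.39 on design B. Tuba1c had 11.90 in both pools, at rank 99.94. Tuba4a had 7.88 in the paired and 7.96 in the unpaired pool, Tuba8 had 6.76 and 6.63, and Tuba3a 4.81 and 4.78. A second Tuba4a probe set lay at the floor in both pools.

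Among beta tubulins, Tubb4a, the form abundant in oligodendrocytes and neurons, had 10.61 in the paired and 10.80 in the unpaired pool on its single probe set, at rank 99.4. Its log2 ratio of -0.19 was the lowest of the alpha and beta tubulins, and stood beside oligodendrocyte markers that were lower in 11 of 13 genes, whose part was not tested. Tubb3, the neuronal form, had 9.89 in the paired and 9.83 in the unpaired pool on 1 probe set and 7.91 and 8.08 on the other. Tubb2a had 9.53 and 9.62 at rank 98.0 and 5.45 and 5.48 on its dimmer probe set. For Tubb5 the kept probe sets had 9.84 in the paired and 9.92 in the unpaired pool, and 10.29 and 10.15. Tubb4b had 5.57 in the paired and 5.33 in the unpaired pool, a log2 ratio of 0.24. Tubb6 had 6.67 and 6.38, a log2 ratio of 0.29. Tubb1, the beta tubulin of platelets, was at the floor in both pools.

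Gamma tubulins and the proteins of their ring complex were below 0 in 5 of 6 kept probe sets, with a median log2 ratio of -0.14. Of these 5, the probe set of Tubg2, that of Tubgcp5 and 1 of Tubg1 carry a suffix, and without suffixed probe sets the median was -0.00. Tubg1 had 8.27 in the paired and 8.28 in the unpaired pool on design A at rank 93.8, and 5.31 and 5.59 on a suffixed probe set of design B. Tubg2 had 6.65 and 6.77. Among ring complex genes, Tubgcp5 had 4.27 in the paired and 4.55 in the unpaired pool, and Tubgcp6 had 4.75 against 4.92 and 4.46 against 4.32. None reached 0.32 in size, and 9 of the 15 gamma tubulin and complex probe sets were under the filter, so the median rests on few and mostly dim values. Over all 15 it was -0.00.

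Genes that act on these motors and tubulins were compared as lists of other genes, by the mean log2 ratio of each gene's kept probe sets. Of 19 measured motor adaptors and regulators, 5 were higher and 14 lower in the paired pool, with a median of -0.05, and none passed 0.32 in either direction. Over all 10579 genes 5187 were higher and 5392 lower, with a median of -0.00, and 3.01% were at least 0.32 higher and 3.81% at least 0.32 lower. The adaptor gene list included Kifc1, a minus-end directed kinesin, at -0.23, the mitochondrial adaptor gene Trak1 at -0.19 over 3 probe sets, the dynein regulator gene Pafah1b1 at -0.19 and Rhot1, the mitochondrial receptor of Trak proteins, at 0.19.

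Tubulin folding, modification and severing genes had 12 higher and 15 lower of 27, with a median of -0.05, and 1 passed 0.32, Ttll1, a tubulin polyglutamylase gene, at 0.38. Next came Tube1, epsilon tubulin, at -0.31, Ttll7, another polyglutamylase gene, at 0.25 with its probe sets at -0.26 and 0.76, and Ttll3, a glycylase gene, at 0.22. Axonemal dyneins and ciliary partners were higher in 6 of 8 measured genes (all genes, 5187 of 10579), with a median of 0.06. None of the 8 passed 0.32 in either direction. The cilium genes Rsph1, at 0.24, and Dnali1, at 0.20, were highest, followed in size by the light chain genes Dnal4 at 0.16 and Dnal1 at -0.16. Each list's count is a description of these pools.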

How the data were processed

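The deposited values came as 3 tables, 1 for each array design, with a column for each training group, and were read as log2 signals. The log2 base is inferred from their range, and the summarization and normalization that the authors applied are not given in the labels or file headers read. A constant was added to the paired array of each design (0.01 in every case), chosen to bring the median log2 ratio of the brighter 50% to 0. Each design's 25th percentile then served as a floor, and probe sets whose mean signal reached the 50th percentile were kept. A total of 198 control probe sets were left out. Gene symbols came from the platform annotation, and all 155 member symbols equal the current RefSeq symbol of GRCm38.p6.

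A single array for each training group on each design allows no test, so counts past 1.5-fold and past 0.32 on the log2 scale are given beside those of all kept probe sets. A gene's value is the mean over its kept probe sets, and its SD is a spread over probe sets and not over replicate samples. Values of both arrays are given for the brightest, the most different and the best covered members and for all tubulins. Kinesin classes, promoter motifs and the ependyma list without Dynlrb2 were set after the data were seen. Members, lists and thresholds were chosen with earlier results of these data known. The steps were tested on simulated data with planted differences larger than any among the kept members. That test therefore does not cover differences near 0.32. Python 3.11.15, pandas 2.3.3, numpy 2.4.6 and statsmodels 0.14.6 were used.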

Additional observations from a re-analysis of the deposited data

How the results depend on the processing

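No paired analysis was possible because each training group had 1 array per design, and the letters A, B and C name designs and not replicates. The values were recomputed unscaled, with quantile or loess scaling (span 0.3), without floor or filter, with a filter at the 75th percentile, without suffixed probe sets, with current symbols and with 1 value per gene. The 2 member probe sets at least 1.5-fold lower became 1 with the filter at the 75th percentile, which removes Dync1i2, and 1 without suffixed probe sets, which removes that of Kif5b. They became 3 unscaled and with quantile or loess scaling. In these settings Kif1c passed 1.5-fold too, with log2 ratios of -0.59, -0.59 and -0.60. The 6 lower by at least 0.32 on the log2 scale became 2 at the 75th percentile. Other counts stayed within 1.5 times. Over the median log2 ratios, the sign turned in 8 of 82 comparisons with an alternative, those of all members, dynein light chains, alpha tubulins and beta tubulins, whose medians lie within 0.04 of 0. Over named genes it turned in 6 of 287, for Dctn2, Kif3a, Tuba1a, Tuba1c and Tubb5. Tuba1a and Tuba1c turned under loess scaling, to 0.01 and 0.04. Means that moved by more than the SD of a probe set about its gene were those of Dctn3 (0.04 without suffixed probe sets), Kif5b (-0.61 at the 75th percentile), Kif5c (0.07 at the 75th percentile), Dynlt3 (-0.15 with no filter) and Tubgcp5 (-0.08 with no filter). In each, fewer or more probe sets entered the mean. Dim probe sets limit what can be said of the 21 genes under the filter.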
